A study of Mus musculus with 4 samples.

Results

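The genes described here encode the proteins of the cytosolic ribosome, measured by RNA sequencing in embryonic mouse microglia with and without the chromatin remodeller subunit Arid1a. They were chosen by name. A gene had to stand in both deposited tables as protein coding and be called Rpl or Rps followed by a digit, or Rpsa, Rplp0, Rplp1 or Rplp2, leaving out pseudogene names and the S6 kinases. This gave 84 of the 16655 genes in both tables. They held all 31 proteins of the small subunit and all 46 of the large subunit on the lists used, 6 paralogs (Rpl7l1, Rpl22l1, Rpl36al, Rpl39l, Rps27l and Rps27rt), and Rps19bp1, which binds a ribosomal protein and is not one itself. The label therefore holds for 77 of the 84 in the strict sense. Fau and Rack1 belong to the ribosome but not to these names, and are given apart.

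The samples were microglia (the macrophages that live in brain tissue), taken by fluorescent cell sorting from the cortex of C57BL/6 mice at embryonic day 14. Values were analysed for 1 library of Arid1acKO mice, a conditional deletion of Arid1a (replicate 2, the cKO library), and 2 libraries of Arid1afl/fl mice, which carry the floxed allele without its deletion (control 5 and control 6). cKO replicate 1 is among the 4 listed samples and was not analysed here. The driver of the deletion and the number of embryos per sample are not given in the sources used here, nor whether the samples came from separate animals, so the spread between controls may be technical. The cKO library has no replicate, and a mean ± SD below is that of both controls.

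Each ribosome joins a small subunit, which reads the messenger RNA, to a large subunit, which forms the peptide bond. Every protein is needed in about equal number, and the genes are usually transcribed at high and matched rates in growing cells. Their messages begin with a run of pyrimidines, the terminal oligopyrimidine or TOP tract, through which the mTORC1 pathway sets how strongly they are translated. Myc is a known activator of ribosomal protein genes and of the factors that assemble ribosomes.

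The tables held 17260837 counted reads for the cKO library, 18608979 for control 5 and 13774075 for control 6. Arid1a itself had 68.9 CPM (the count relative to the library size after TMM scaling) in the cKO library, 109 (control 5) and 130 (control 6), lowest in the library labelled as knockout (log2 fold change of the cKO library over both controls -0.80, SE 0.41, edgeR adjusted p = 0.901). All 15 microglia markers were detected in every library. The cKO library was the lowest in 13 of these 15, and their summed level was 19833 CPM against 27315 (control 5) and 37596 (control 6). Siglech, a lectin of microglia, passed the edgeR test as lower (adjusted p = 0.0324), a call lost without the filter on low counts (0.0558) and with scaling by upper quartiles (0.182) or by size factors of DESeq2 (0.0536). Markers of other cells were scarce. Their summed levels in the cKO library, control 5 and control 6 were 208, 138 and 137 CPM for neural progenitors, 168, 242 and 241 CPM for neurons, 46.8, 38.2 and 53.9 CPM for erythroid cells, 26.7, 42.3 and 41.1 CPM for endothelial cells and 272, 249 and 194 CPM for monocytes and neutrophils. The cKO library was highest in 5 of 8 tested progenitor, 2 of 10 neuron, 3 of 7 erythroid, 2 of 6 endothelial and 4 of 8 monocyte and neutrophil markers. Over all genes tested, it was highest in 38.0% and lowest in 31.1%. Of the defining progenitor genes, Neurog2 (17 reads) and Emx2 (27 reads) were seen in the cKO library and had 0 reads in both controls. Other progenitor markers differed from this pair: among the 8 tested, the cKO library lay between the controls in 2 and was lowest in 1. Mpo, of neutrophils, had 221 reads in the cKO library, 0 (control 5) and 79 (control 6). Among the 8 tested monocyte and neutrophil markers, the cKO library lay between the controls in 3 and was lowest in 1. The progenitor sum rested on Vim, which other cells also express, at 102, 36.5 and 18.4 CPM, and Nes, at 97.0, 97.0 and 113 CPM. The part of these markers in the results below was not tested.

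The start of the transcript is shown for the 6 genes with the largest fold change at a mean of 5 CPM or more, for Rps6, the substrate of the S6 kinases, for the most abundant gene, Rpl4, and for Rpl34 and Rpl35, the pair with the smallest fold changes at that level. Each line gives 30 bases of RefSeq sequence on GRCm38.p6, from 15 before the annotated start to 15 from it on. Capitals mark a pyrimidine run of a C and at least 4 further pyrimidines, where that C lay within 5 bases of the annotated start.
Rps10 (chr17:27635230-27635259, minus strand): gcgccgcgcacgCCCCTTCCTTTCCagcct
Rps23 (chr13:90923107-90923136, plus strand): gccttcggctgggcggggCTTCCCgcaatg
Rplp0 (chr5:115559452-115559481, plus strand): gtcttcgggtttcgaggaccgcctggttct
Rps18 (chr17:33955651-33955680, minus strand): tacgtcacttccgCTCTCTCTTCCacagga
Rpsa (chr9:120127751-120127780, plus strand): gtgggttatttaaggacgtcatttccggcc
Rps2 (chr17:24720048-24720077, plus strand): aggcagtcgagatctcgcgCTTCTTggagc
Rps6 (chr4:86857353-86857382, minus strand): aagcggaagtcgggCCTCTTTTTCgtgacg
Rpl4 (chr9:64173372-64173401, plus strand): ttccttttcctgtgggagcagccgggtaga
Rpl34 (chr3:130730384-130730413, minus strand): cgccttccctgacgtaCTTCCTgtccggcg
Rpl35 (chr2:39005117-39005146, minus strand): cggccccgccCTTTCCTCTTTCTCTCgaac

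Of these genes, Rps10, Rps18, Rps23, Rps2, Rps6, Rpl34 and Rpl35 carried such a run, and Rplp0, Rpsa and Rpl4 did not at the start that RefSeq annotates. Promoter sequence was found for 64 of the 84 genes, and 30 of them (46.9%) had the run, against 21.5% of 17491 protein coding genes with a promoter in the same table. The letters CCGGAA, read on both strands between 250 bases before and 50 after the start, were in 56.3% of the 64 and in 20.9% of protein coding genes. AAGATGGC was in 9.38% and 3.57%, and GGGCGG in 62.5% and 49.2%, by the same search. These are letters in a window and say nothing of a factor bound there. The median log2 fold change was 0.49 over the 30 genes with the run and 0.43 over the 32 tested genes without it, and 0.34 with CCGGAA (35 genes) against 0.51 without it (27 genes). Neither difference was tested.

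Most ribosomal protein messages had their highest level in the cKO library, by less than 2-fold as a rule, and no single gene passed the test. Of the 84 genes, 82 passed the filter on low counts, and the cKO library was the highest of the 3 in 63 and the lowest in 3. Over all 15236 genes tested, it was the highest in 38.0% and the lowest in 31.1%, so the share of 76.8% in this family stood above the background. The median log2 fold change was 0.49, with a middle range from 0.24 to 0.68, against 0.05 over all genes tested. Without control 6 it was 0.27 and without control 5 it was 0.67. The summed level of the 82 genes was 8675 CPM in the cKO library, 6874 (control 5) and 5773 (control 6). In bulk RNA, fewer cells of a type and less RNA per cell cannot be told apart.

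With edgeR's quasi-likelihood test and Benjamini-Hochberg adjustment over all genes, 0 of the 82 genes passed, where 0.0394% of all genes did (0.0131% as higher), and the smallest adjusted p was 0.713. At an unadjusted p under 0.05 there were 2, Rpsa and Rps23, both higher, where 6.0% of all genes reached that level and 2.46% did so as higher. The DESeq2 Wald test also called 0, with 2 at an unadjusted p under 0.05, although it called 1.31% of all genes. A permutation of 1 library against 2 cannot give an exact p below 0.333.

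The controls differed from each other in the same direction. Control 5 was above control 6 in 63 of the 82 genes, against 44.7% of all genes, and the median log2 ratio of control 5 over control 6 was 0.34 (all genes, -0.07). The cKO library was thus closer to control 5, with a median log2 ratio of 0.27 over control 5 and 0.67 over control 6, where all genes had 0.14 and 0.03. Both ratios share the cKO library. It was above control 5 in 64 of the 82 genes (all genes, 55.5%) and above control 6 in 78 (all genes, 51.3%). In 32 of the 82 genes (39.0%) the cKO library was highest and its gap to the nearer control on the log2 scale was larger than the gap between controls, against 17.1% of all genes. In the other members the gap between the controls was as large, or the cKO library was not the highest.

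**Figure D1:**
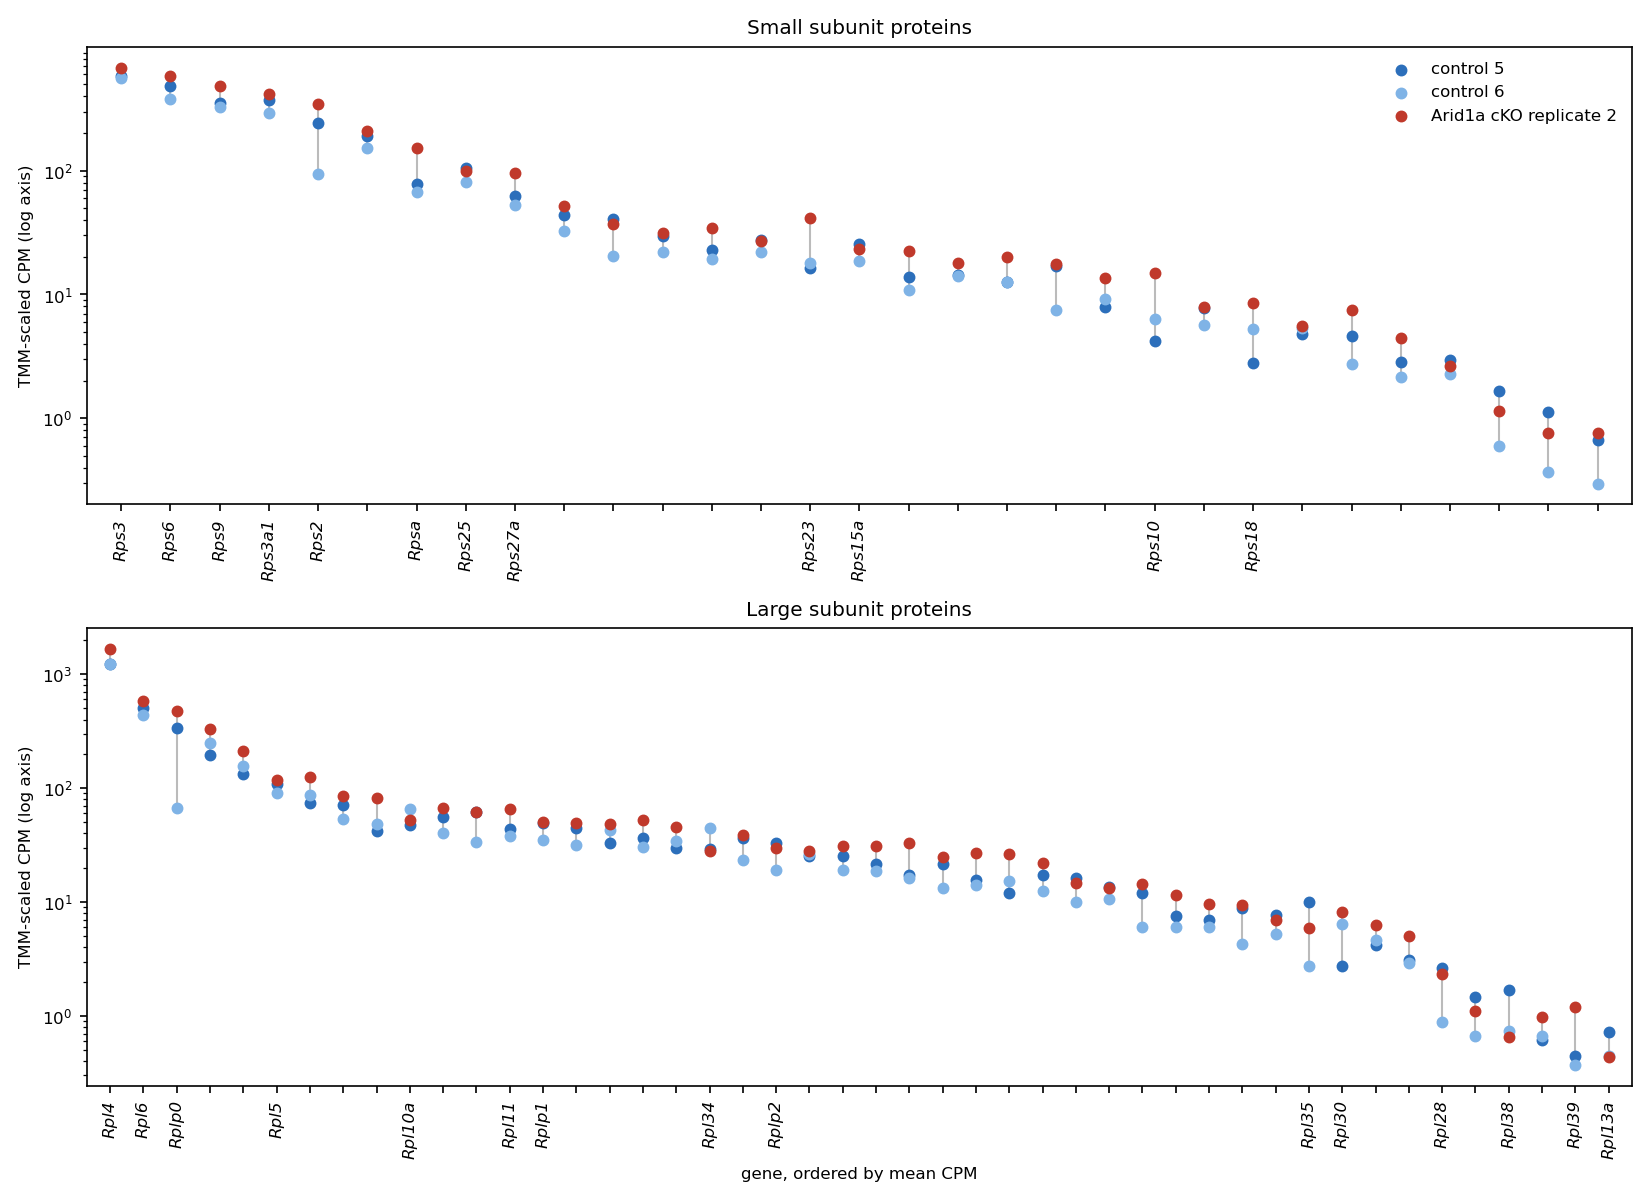
TMM-scaled CPM (log axis) of the small subunit genes (top) and large subunit genes (bottom), ordered by mean level, with 1 point per library and a grey line from the lowest to the highest, and labels for some of the genes described by name. The cKO library is the highest point for 24 of 31 small subunit genes and 35 of 46 large subunit genes, and control 6 is far below the other libraries at Rplp0 and Rps2.

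Both subunits showed this pattern. Among the 31 small subunit genes the cKO library was highest in 24 and lowest in 0, with a median of 0.43 on the log2 scale (0.23 against control 5, 0.68 against control 6). Among the 46 large subunit genes it was highest in 35 and lowest in 3, with a median of 0.49 (0.29 and 0.66). The difference between subunits was not tested.

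Levels within the family were far apart, although their proteins are used in about equal number. Per kilobase of annotated exon, the mean level over the 3 libraries had a median of 12.1 CPM per kb. It ran from 0.254 for Rpl13a to 682 for Rpl4. Annotated exon here merges all transcripts of a gene, so its length can exceed that of the main message. The family took 0.918% of counted reads in the cKO library, 0.662% (control 5) and 0.566% (control 6). The 10 most abundant genes held 69.7%, 70.5% and 69.9% of the family's reads. Ribosomal protein genes have many processed pseudogenes, near-copies of the message elsewhere in the genome, and 81 of the 84 shared at least one stretch of 50 bases of their coding transcripts with an annotated pseudogene. A median of 62.9% of such stretches occurred in no other annotated gene, from 4.91% in Rpl35 to 100%, as in Rps19bp1 and Rpl39l. How reads with several matches were counted is not given in the sources used here, so levels of genes with few unique stretches are uncertain. Across the 82 genes, which share the same libraries, the unique share had a Spearman rho of -0.04 with the mean level per kb and of -0.02 with the log2 fold change.

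Rpl4 (ENSMUSG00000032399, chr9:64173375-64178666, plus strand in the files, whose positions match GRCm38), which lines the tunnel through which the new peptide leaves, was the most abundant member. It had 30337 reads in the cKO library, 21967 (control 5) and 16438 (control 6), which is 1661 CPM (95% exact Poisson interval 1642 to 1679) against 1223 ± 6.32 CPM over both controls (SD, n = 2). The controls nearly coincided and the cKO library stood 1.36-fold above them (log2 fold change 0.44, SE 0.31, edgeR adjusted p = 0.962). Rps9 showed the same arrangement, with 484 CPM against 355 (control 5) and 329 (control 6) (log2 fold change 0.50, SE 0.34). Rps3, at the entry of the messenger RNA into the ribosome, had 678 CPM against 578 and 558 CPM. Its controls also lay closer to each other than to the cKO library.

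In the other abundant members the controls were spread more widely. Rps6, the phosphorylated target of the S6 kinases, had 582 CPM in the cKO library, 479 (control 5) and 383 (control 6) (log2 fold change 0.43, SE 0.35). Rpl6 had 579, 509 and 435 CPM, and Rps3a1 had 413, 373 and 292 CPM. In all 3 the cKO library was the highest. On the log2 scale its gap to control 5 was smaller than the gap between the controls in each of them. Per merged exon length, Rps3a1 (977 bases) and Rps6 (1586 bases) came next to Rpl4, with means of 368 and 303 CPM per kb. This order depends on the annotated lengths, and only 29.0% and 15.4% of their 50-base stretches were unique.

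Rpsa (ENSMUSG00000032518, chr9:120127689-120132369, plus strand), the small subunit protein also known as the laminin receptor, had the smallest p of the family. It had 2800 reads in the cKO library, 1407 (control 5) and 911 (control 6), or 153 CPM (95% exact Poisson interval 148 to 159) against 73.0 ± 7.84 CPM over both controls (SD, n = 2). The cKO library was 2.10-fold above the control mean (log2 fold change 1.07, SE 0.38), and Rpsa did not pass the test. This 1 library lay above both controls, as it did in 38.0% of all genes. Rps23, a protein of the decoding centre, had 41.3 CPM against 16.3 (control 5) and 18.1 (control 6). Its log2 fold change was 1.27 (SE 0.51, edgeR adjusted p = 0.808), and the controls again lay close together. Rps10, a small subunit protein that is ubiquitylated when ribosomes collide, had 274 reads against 75 and 85, or 15 CPM against 4.19 and 6.30. This was the largest log2 fold change at a mean of 5 CPM or more, 1.52 (SE 0.79, edgeR adjusted p = 0.912). The annotated transcript RPS10-NUDT3, on the same strand, covers 20.6% of its exon bases.

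Rps10, Rps23 and Rpl39 stood 2-fold or more above both controls, which 9.23% of all genes did, and 0 members stood 2-fold or more below both, which 6.92% of all genes did. Rpl39 reached that with 22 reads against 8 and 5, so counting error alone is wide (1.20 CPM, 95% exact Poisson interval 0.755 to 1.82). Rps18, of the small subunit head, had 8.48 CPM against 2.79 (control 5) and 5.26 (control 6), and Rpl30, an RNA-binding large subunit protein, had 8.16 CPM against 2.74 and 6.37. Most of the difference in both came from control 5. In the authors' deposited table with control 5, Rpl30, Rps10 and Rps18 were marked as significantly higher, 3 of the 84 members, where 22.5% of all genes in both tables were. In the authors' deposited table with control 6, Rpl39, Rplp0 and Rps2 were, again 3 of the 84, where 10.9% of all genes were. No member was marked in both of the authors' deposited tables, as 11.4% of all genes were in either direction.

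**Figure D2:**
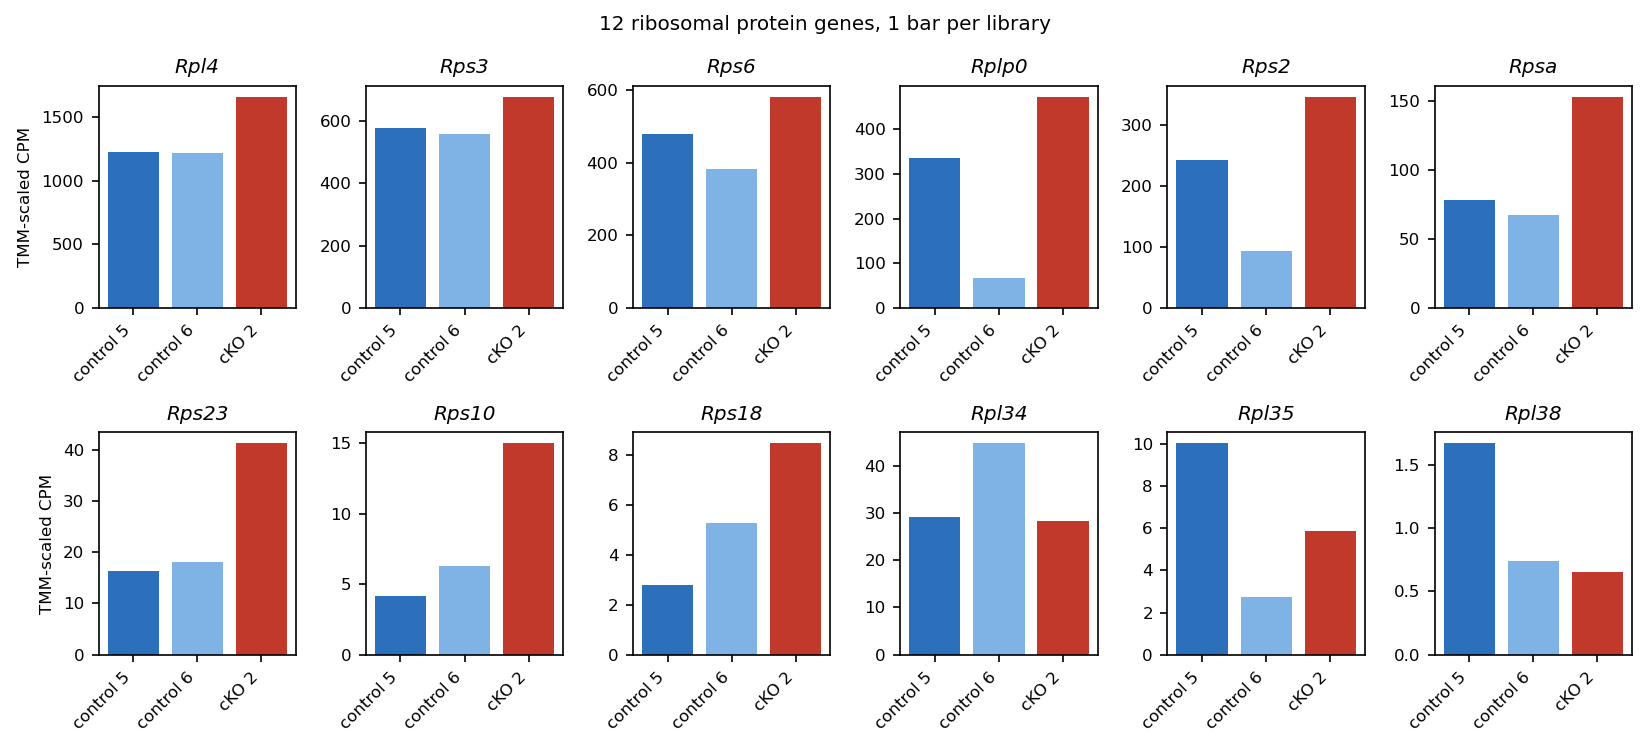
TMM-scaled CPM of 12 ribosomal protein genes, 1 bar per library (control 5, control 6 and replicate 2 of the knockout), each panel with its own linear axis from 0. Rpl4, Rpsa and Rps23 have controls close together and a higher cKO library, Rplp0 and Rps2 have a low control 6, and Rpl34 and Rpl38 are lowest in the cKO library.

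Rplp0 (ENSMUSG00000067274, chr5:115559467-115563727, plus strand), the scaffold of the stalk that recruits translation factors, stood out through control 6. It had 8632 reads in the cKO library, 5996 (control 5) and 894 (control 6), or 473, 335 and 66.2 CPM. Control 5 was 5.06-fold above control 6, and the log2 ratio of the cKO library was 0.50 over control 5 and 2.83 over control 6. Rps2, near the entry of the messenger RNA channel, had 347, 243 and 93.1 CPM, with log2 ratios of 0.51 and 1.90. Both genes were highest in the cKO library, but their fold changes (1.24, SE 0.74, and 1.04, SE 0.53) rested mainly on control 6. Leaving this pair out, the median of the family was 0.48. The summed level was then 7855 CPM in the cKO library, 6296 (control 5) and 5614 (control 6). The remaining stalk genes were less uneven, control 5 exceeding control 6 by 1.38-fold in Rplp1, 1.70-fold in Rplp2 and 1.11-fold in Rpl12. The cKO library, control 5 and control 6 stood at 49.9, 48.9 and 35.3 CPM for Rplp1 and at 29.9, 32.7 and 19.3 CPM for Rplp2, where the cKO library lay between the controls. Rpl12, at the base of the stalk, stood at 26.7, 15.6 and 14.1 CPM.

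Rpl5 and Rpl11 enter the ribosome together with 5S ribosomal RNA, and free in the nucleus they bind Mdm2 and so stabilise p53. Rpl11 had 65.0 CPM in the cKO library against 43.5 (control 5) and 38.2 (control 6) (log2 fold change 0.67, SE 0.43). Rpl5 had 119 against 109 and 90.8 CPM (0.25, SE 0.39), and a gene on the other strand covers 24.3% of its exon bases. Rps27a, made as a fusion with ubiquitin, had 95.2 against 62.7 and 53.3 CPM (0.72, SE 0.40). All 3 were highest in the cKO library and none passed the test.

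In 16 of the 82 genes the cKO library lay between the controls and in 3 it was the lowest. Rpl34 was the lowest in it at an ample count, with 515 reads against 520 and 604, or 28.2 CPM against 29.0 (control 5) and 44.8 (control 6) (log2 fold change -0.39, SE 0.52). Rpl38 (12, 30 and 10 reads in the cKO library, control 5 and control 6) and Rpl13a (8, 13 and 6 reads) were also lowest, at counts too small to show a difference of this size. Rpl10a stood at 52.1 CPM between 47.0 (control 5) and 65.3 (control 6), and the cKO library likewise lay between the controls in Rps25 (99.8 against 105 and 81.0) and Rps15a (23.3 against 25.8 and 18.7). Rpl35 had 5.86 CPM against 10.1 and 2.74, and 66.2% of its exon bases lie under Wdr38 on the other strand. The library kit does not mark strand, so reads of such pairs cannot be told apart. In the 7 members with 10% or more of exon bases under a gene on the other strand, the median log2 fold change was 0.10 with the cKO library highest in 3, and in the other 75 it was 0.50 with 60 highest. Rpl28, whose controls were also far apart, had 43 reads against 47 (control 5) and 12 (control 6).

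**Figure D3:**
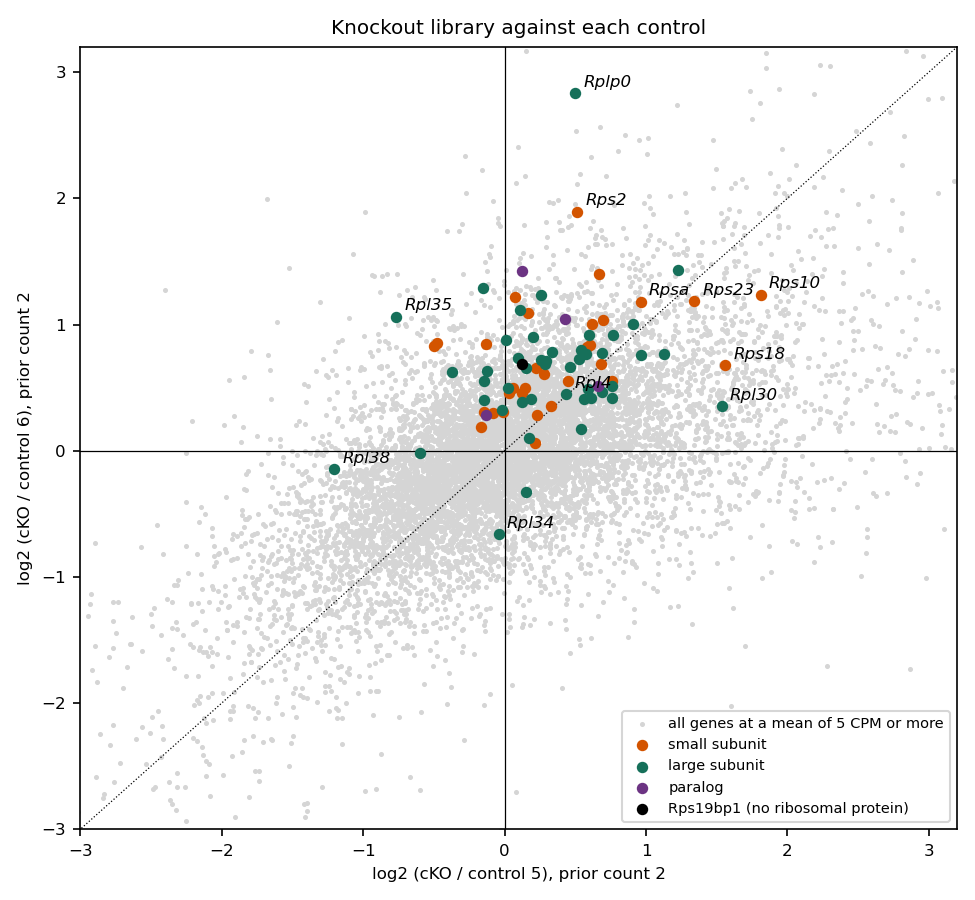
Log2 ratio of the cKO library over control 5 (horizontal) and over control 6 (vertical) for the 82 tested genes, coloured by subunit, on all genes at a mean of 5 CPM or more (grey), with a dotted line of equal ratios. The points share the cKO library on both axes. 78 of the 82 genes lie above 0 on the vertical and 64 on the horizontal axis, and Rplp0 and Rps2 lie highest.

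The paralogs replace or resemble a core protein in some tissues. Rpl7l1, a relative of Rpl7 found in precursors of the large subunit, was the most abundant of them per length (mean 139 CPM per kb) and stood between the controls with 500 CPM in the cKO library against 549 (control 5) and 411 (control 6). Rps27l, a paralog of Rps27 known as a p53 target, had 79.9 against 59.4 and 38.7 CPM (log2 fold change 0.70, SE 0.45). It exceeded Rps27 itself in every library per length, with a mean of 72.7 against 14.8 CPM per kb, although 53.8% of the 50-base stretches of Rps27 and 83.8% of those of Rps27l are unique. Rpl22l1 had 6.57, 6.03 and 2.37 CPM beside Rpl22 at 26.1, 11.9 and 15.3 CPM, so the controls were in opposite order for this pair. Rps27rt, a retrogene of Rps27 with 8.92% unique stretches, had 82, 50 and 42 reads. Rps4l, a paralog that is not a member under the rule, had 13.2 CPM in the cKO library against 10.2 (control 5) and 8.60 (control 6). Rpl36al (2, 2 and 9 reads) and Rpl39l (6, 2 and 1 reads) did not pass the filter, and Rpl3l was listed only in the table with control 6.

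The pseudogenes named after these genes were also most often highest in the cKO library, at low counts. The tables share 75 of them from 36 parent genes, with 4871 reads in the cKO library, 3471 (control 5) and 2209 (control 6). This was 2.98%, 2.74% and 2.76% of the reads of the genes and these pseudogenes together. The 75 were taken by name alone, and some, such as Rpl23a-ps3, Rpl9-ps6 and Rps2-ps6, are annotated as protein coding. Pseudogenes under other names were not counted. In 31 of the 54 tested (57.4%) the cKO library was highest and in 6 (11.1%) it was lowest, beside 38.0% and 31.1% of all genes. The median log2 fold change of the 54 was 0.54. Control 5 was above control 6 in 28 of the 54, with a median log2 ratio of 0.03, where the genes themselves had 0.34. Rps6-ps4, the most abundant, had 61.0, 48.9 and 38.7 CPM, in the same order as its parent Rps6. Rpl34-ps1 had 17.2, 15.6 and 4.89 CPM and was highest in the cKO library, where its parent Rpl34 was lowest. How reads were divided between parents and copies was not tested.

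Ribosomal proteins outside the naming rule had the order of the family. Rack1, a scaffold on the small subunit, had 258 CPM in the cKO library against 172 ± 24.5 CPM over both controls (SD, n = 2), and Fau, which encodes a small subunit protein, had 37.8 against 27.0 ± 4.38 CPM. Other genes with TOP messages included translation elongation factors and the nascent chain proteins Naca and Btf3. Of these 21 genes, the cKO library was highest in 15 and lowest in 1, with 0 past the test (1 at an unadjusted p under 0.05). Over all genes tested, the cKO library was highest in 38.0% and lowest in 31.1%. The log2 fold changes of the 21 genes had a median of 0.33, the same over control 5 and 0.43 over control 6. Naca had 279 CPM against 177 ± 4.63 CPM and Btf3 had 186 against 118 ± 18.8 CPM. Vim, an intermediate filament gene on that list, had the smallest p of it at 102 against 27.5 ± 12.8 CPM (edgeR adjusted p = 0.436).

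Most factors that assemble ribosomes or start translation also had their highest level in the cKO library, and 0 passed the test (1 biogenesis and 2 initiation factors at an unadjusted p under 0.05). In the 37 ribosome biogenesis factors the cKO library was highest in 26 (70.3%) and lowest in 1 (2.70%), beside 38.0% and 31.1% of all genes. The median of the 37 was 0.45 on the log2 scale (0.15 against control 5, 0.56 against control 6). Nat10, an RNA acetyltransferase of the nucleolus, had 54.7 CPM against 23.9 ± 3.57 CPM over both controls (SD, n = 2), Nob1, which finishes the 3′ end of the small subunit RNA, had 76.4 against 44.4 ± 2.14 CPM, and Rrp12 had 20.6 against 7.46 ± 3.91 CPM. In the 22 initiation factors the median was 0.30 (0.25 and 0.37), with 15 (68.2%) highest. Eif3b had 88.0 against 41.6 ± 8.59 CPM, Eif2b5 41.1 against 15 ± 3.69 CPM and Eif5a 748 against 531 ± 85.8 CPM. Of 14 genes of RNA polymerase I, which transcribes ribosomal RNA, 7 were highest and the median was 0.09. Its largest subunit Polr1a had 49.5 against 23.4 ± 2.90 CPM, Cd3eap had 12.4 against 7.97 ± 2.03 CPM and Taf1c 8.10 against 4.67 ± 4.08 CPM.

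The regulators of ribosome production lay in different directions. Myc had 255 CPM in the cKO library beside 117 ± 5.70 CPM in both controls (SD, n = 2), and did not pass (log2 fold change 1.13, SE 0.35, edgeR adjusted p = 0.592). Of the Myc network, 6 of 11 genes (54.5%) were highest and 4 (36.4%) lowest in the cKO library (median 0.22), beside 38.0% and 31.1% of all genes. Mnt, a repressor that shares the partner Max, had 27.3 against 11.6 ± 1.99 CPM and the Myc antagonist Mxi1 had 23.3 against 48.6 ± 5.12 CPM. In the mTORC1 and S6 kinase list, 7 of 17 (41.2%) were highest, near the 38.0% of all genes, and 3 (17.6%) were lowest. The median of this list was 0.21, with 0.10 over control 5 and 0.07 over control 6. Deptor, an inhibitor of mTOR, had 5.20 against 35.6 ± 5.24 CPM (log2 fold change -2.77, SE 0.62, edgeR adjusted p = 0.288), and passed only the DESeq2 Wald test (adjusted p = 0.0113). The S6 kinase gene Rps6kb1 had 122 against 212 ± 66.3 CPM, and Eif4ebp1, a translation repressor that mTORC1 inactivates, had 73.4 against 46.6 ± 2.17 CPM.

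**Figure D4:**
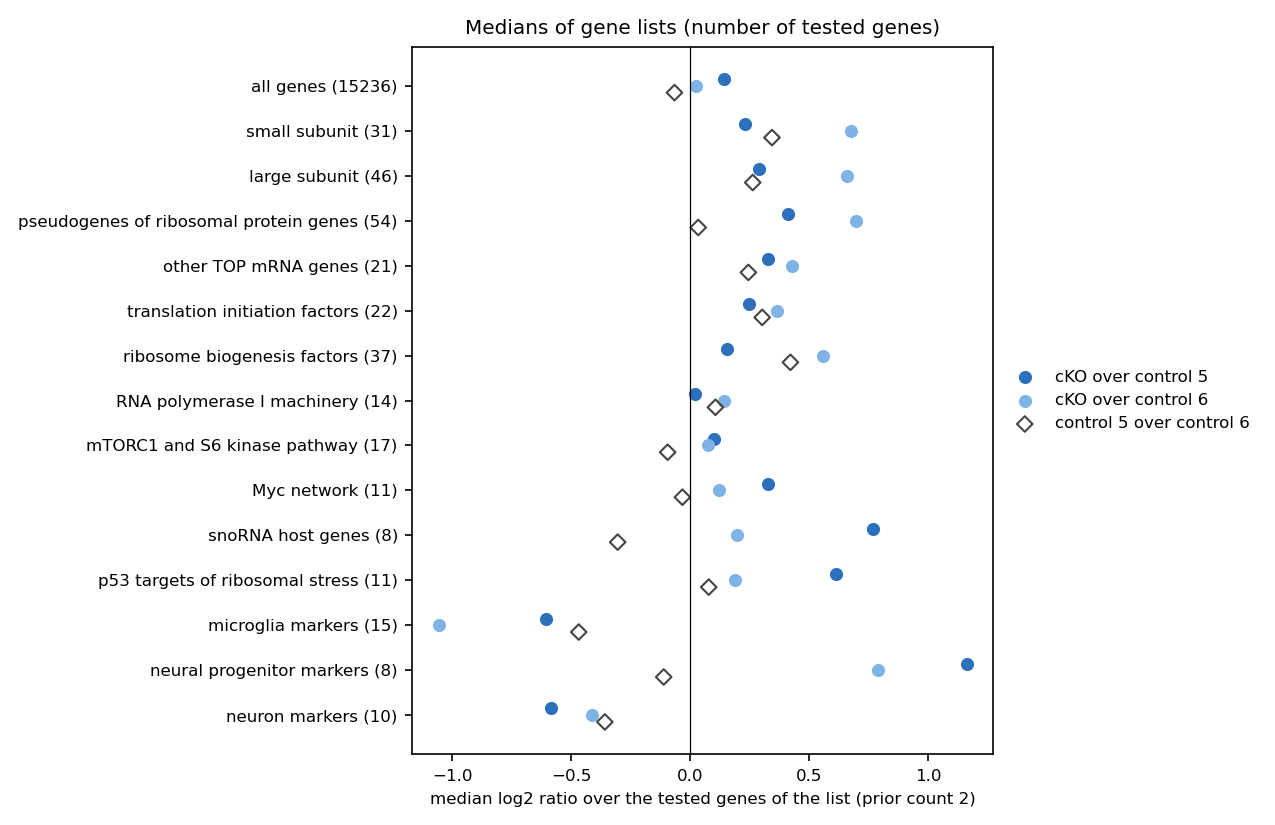
Median log2 ratio over the tested genes of each list (number in brackets) for the cKO library over control 5, the cKO library over control 6, and control 5 over control 6. Both subunits, the other TOP genes, initiation factors and biogenesis factors lie right of 0 in all 3 ratios. The pseudogenes, the RNA polymerase I genes and the p53 targets do so too. The microglia markers and the neuron markers lie left of 0 in all 3.

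Ribosomal protein genes are short, with a median of 1755 annotated exon bases against 4519 for protein coding genes tested, and the fold change of all genes varied with length. Over the 10 classes of exon length the median log2 fold change of all genes was 0.05 in the shortest, which holds 17 members, 0.19 in the second shortest, which holds 27, and -0.12 in the longest. Within each of the 7 classes that hold members, the median of the members exceeded the median of all genes by more than 0.2, and after centring on the class the median of the family was 0.34. The microglia markers ran opposite to the ribosomal genes in both controls, with medians of -0.61 over control 5, -1.06 over control 6 and -0.47 for control 5 over control 6.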

How the data were processed

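RNA of sorted microglia was sequenced from libraries of a kit without strand marking, per the labels' protocols. Bowtie2 2.2.3, TopHat2 2.0.12, HTSeq 0.6.0 and the build mm9 are named in the submitters' processing notes. The authors deposited 2 tables, each with raw read counts of the cKO library and 1 control, CPM scaled by the library total, a fold change ratio, its log2 value and p-values by a test not given in the sources used here. Of the 84 genes, 72 had positions identical to GENCODE M21 on GRCm38.

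Counts of the 16655 genes in both tables entered edgeR 4.0.16 (R 4.3.3). Of these, 15236 passed filterByExpr and were tested by a quasi-likelihood F test, two-sided, with TMM factors of 1.059, 0.963 and 0.981 (knockout, control 5, control 6), Benjamini-Hochberg adjustment and a threshold of 0.05. With 1 residual degree of freedom, all spread is that between controls, assumed to hold for the knockout too. The fit pools this spread in part over all genes tested, so an SE is not the spread of that gene's controls alone. CPM values are TMM-scaled. An SE is the fold change divided by the root of F, and library ratios use a prior count of 2. Intervals cover counting error only. The script was tested on simulated data.

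Genes named were the 6 largest and 6 smallest fold changes at a mean of 5 CPM or more, the 6 highest levels in CPM and per exon length, the 4 with controls furthest apart in log2 ratio, members marked in the authors' deposited tables, genes lowest in the cKO library, the paralogs, 8 members of known role, and, at a mean of 5 CPM or more, the 3 smallest p of each list. Others were named after their values were seen. The members and lists were chosen with earlier results of these data known. Alternatives were DESeq2 1.42.0 size factors and Wald test, upper-quartile factors, library totals, other filters, each control left out, core subunits alone and centring by exon length.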

Additional observations from a re-analysis of the deposited data

How the results depend on the processing

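The count of ribosomal protein genes passing the test was 0 with every normalization, filter and test tried. The median log2 fold change of the family was 0.49 with TMM, DESeq2 size factors or upper-quartile factors. With library totals alone it was 0.62, but the median of all genes then moved from 0.05 to 0.17, and the distance between the family and all genes was 0.44 in each of these. It was 0.48 without a low-count filter, 0.50 at 5 CPM or more in 2 libraries and 0.49 over core subunits alone. Leaving out 1 control gave from 0.27 (without control 6) to 0.67 (without control 5), the widest range of all alternatives. Members lowest in the cKO library numbered 3 with TMM or DESeq2 size factors, 2 with upper-quartile factors and 1 with library totals. The number of genes highest in the cKO library was 63 with DESeq2 size factors, 62 with upper-quartile factors, 69 with library totals, and 59 of 77 over core subunits. Leaving out 1 control, chosen after the data were seen, gave 64 (without control 6) to 78 (without control 5). With library totals alone the log2 fold changes of Rpl10a (0.0151), Rpl35 (0.00182) and Nes (0.00741) changed sign, each being near 0. No other gene named changed direction with the normalization, the filter or the Wald test. No paired analysis was possible because the groups share no replicate number. Below about 30 reads per library, as in Rpl38, Rpl13a and Rpl39, depth limits what can be seen.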

Other observations

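Genes of the p53 pathway, which responds to faulty ribosome assembly through Rpl5 and Rpl11, did not share a direction. Over all genes tested, the cKO library was highest in 38.0% and lowest in 31.1%. Among the 11 tested genes of this pathway, it was highest in 6 (54.5%) and lowest in 3 (27.3%). Their log2 fold changes had a median of 0.39 (over control 5, 0.61, and over control 6, 0.19) and 0 passed the edgeR test (2 at an unadjusted p under 0.05), while Pmaip1 passed the DESeq2 Wald test (adjusted p = 0.000314). The cell cycle inhibitor Cdkn1a had 206 CPM against 104 ± 15.7 CPM over both controls (SD, n = 2), while the cell death gene Pmaip1 had 132 against 485 ± 123 CPM and Mdm4, which restrains p53, had 99.3 against 149 ± 25.3 CPM. Of 8 non-coding host genes of snoRNAs, RNAs that guide the modification of ribosomal RNA, 4 were highest and 0 lowest, with a median of 0.32. Gas5 had 13.6 CPM against 13.1 ± 2.75 CPM, Snhg20 had 7.77 against 4.05 ± 0.0381 CPM and Snhg6 had 12.7 against 18.2 ± 9.13 CPM. Of the ribosomal protein genes, 30 hold an annotated snoRNA within them. Their median log2 fold change was 0.51 with 25 highest, beside 0.46 with 38 highest in the 52 tested genes without one.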
